A study of Mus musculus with 6 samples.

Results

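The 41 genes described here belong to the Wnt pathway: ligands, an R-spondin, receptors, inhibitors, transducers, transcription factors and target genes. They were listed by name and pathway role, by a rule that uses no measured value but was written with earlier results of these data known, and 40 of them were among the 22180 genes measured. The expression of Tcf7 was not analysed here. The samples were basal cells of the mouse mammary epithelium, the outer layer that holds the contractile myoepithelial cells, taken by flow cytometry from virgin adult females (8 to 14 weeks). Wild type cells were run on 3 arrays, as were cells labelled Trp53-/-, p16ink4a-/- and p19arf-/-, called knockout here, with 1 biological replicate per array. Trp53 encodes the tumour suppressor p53, and p16ink4a and p19arf are both products of Cdkn2a. Every cell sample passed through the same enzymatic digestion, bead depletion of cells bearing CD45, CD31 or TER119 (blood and endothelial lineages), and a sort with CD49f and CD24 among the stains. The labels name neither a strain nor a Cre driver for the deletions. The question of the design is which transcripts differ between the genotypes.

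Wnt proteins are secreted lipid-modified signals that bind Frizzled receptors and the co-receptors Lrp5 and Lrp6. In the canonical branch this stops the destruction of beta-catenin by a complex built on Axin and Apc, and beta-catenin then acts with TCF and LEF factors in the nucleus. Several of the genes switched on in this way encode inhibitors of the pathway, so that it limits itself. In the mammary gland, Wnt4 made by hormone-sensing luminal cells under progesterone acts on neighbouring cells, and Wnt-responsive cells with regenerative capacity lie in the basal layer.

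Values are log2 signals from the deposited table, where a difference of 1 is a factor of 2. Differences are knockout minus wild type, with the standard error (SE) and 95% interval of limma, which borrows information on the spread across all genes. The signals of different genes come from different probes, so a gap in level between genes is no measure of their relative transcript amounts. Marker levels are printed side by side as a rough guide to the cells only. Member means ran from 4.23 to 10.10. As a guide to the scale only, the lower quartile of all gene means was 4.57, the median 5.78 and the upper quartile 7.17. The labelled cell type was set against 14 measured basal markers, whose list mean was 9.90 to 10.28. Krt14, the basal keratin, read 13.2 to 13.5 and Acta2, smooth muscle actin, 12.27 to 12.56, while Trp63, the basal transcription factor, read 7.17 to 8.16 and Oxtr, the oxytocin receptor, 6.33 to 7.74. Luminal signal was present too, with the keratin Krt8 at 11.01 to 11.86. The blood cell marker Ptprc read 3.28 to 3.75 and the adipocyte marker Adipoq 4.13 to 4.49, but not every marker of these cells read so low. The adipocyte gene Fabp4 had means of 8.14 in wild type and 9.44 in knockout cells. Means of the immune cell gene Cd68 were 7.15 in wild type and 7.51 in knockout cells. The fibroblast matrix gene Dcn had means of 11.42 in wild type and 11.96 in knockout cells. A table of this kind has no value of 0. Cdkn2a probe signal was 6.25 ± 0.356 (SD, n = 3) in wild type and 6.32 ± 0.0703 in knockout cells. It is not known here whether those probes lie in the deleted part, and no Trp53 value was analysed here. The labels were thus not checked by the deleted genes.

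None of the 40 Wnt genes passed at an adjusted p under 0.05, and every member's limma adjusted p was 1.0. Across all genes 0.0% passed, and the smallest adjusted p was 0.818. For a single gene at 3 arrays per genotype, the smallest two-sided p of an exact permutation test is 0.1. At an unadjusted p under 0.05 there were 3 members, Axin2, Sfrp2 and Fzd8, all higher in the knockout. That is 7.5% of members, against 3.32% of all genes in either direction and 1.61% of all genes higher in the knockout. The groups did not overlap for 3 members, Axin2, Sfrp2 and Lgr4, again all higher in the knockout. That share is also 7.5%, against 7.68% of all genes in either direction and 3.63% higher. Sfrp2 enters both counts through the probe set that was kept for it, a choice described with that gene. The count of 3 at an unadjusted p under 0.05 became 1 when knockout replicate 1 was left out, 6 when knockout replicate 3 was, and 5 when wild type replicate 1 was. The share of all genes was not counted in those fits, so these changes cannot be set against all genes. With replicate number as a block the member count was 7 (17.5% of members, against 5.01% of all genes), adding Wnt4, Fzd7, Dkk2 and Apcdd1, with all adjusted p at 0.786 or above in limma. Over all 40 members 22 were higher and 18 lower, with a median difference of 0.014, beside -0.007 over all genes. Of all genes 48.3% were higher, which is the base for each count of direction below. The median absolute difference was 0.112 for members and 0.112 for all genes, and 29 members differed by less than 0.25 in either direction. The median SD among arrays of one genotype was 0.26 for members and 0.207 for all genes. The highest value of a member was most often on wild type replicate 2 (13 members) or knockout replicate 2 (10), and the lowest on wild type replicate 3 (13) or knockout replicate 3 (10).

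**Figure D1:**
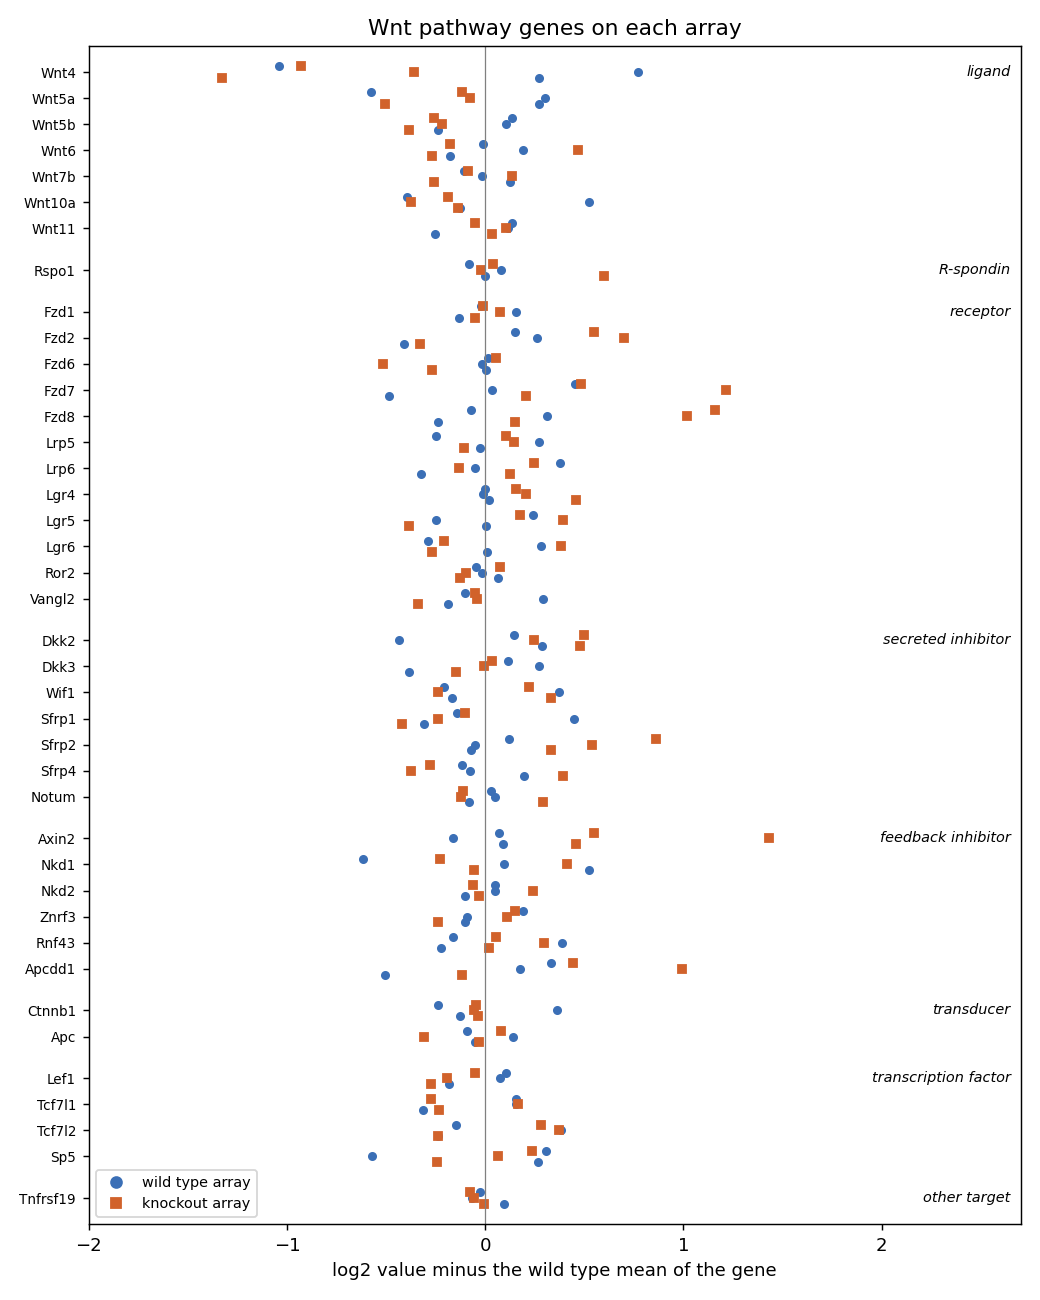
Log2 value of each of the 40 Wnt genes on each array, minus that gene's wild type mean (horizontal axis), with genes in rows by class, blue circles for the 3 wild type arrays and orange squares for the 3 knockout arrays, replicates 1 to 3 from top to bottom within a row. The orange squares lie right of every blue circle for Axin2, Sfrp2 and Lgr4, and most other rows are mixed.

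Among the 7 Wnt ligands, 5 were lower in the knockout and 2 higher, with a median difference of -0.230 and none past the threshold. Wnt4, the ligand that relays progesterone signals in the gland, read 7.40, 9.21 and 8.71 in wild type and 7.51, 8.08 and 7.11 in knockout cells. Wild type replicates 2 and 3 stood above every knockout array, while replicate 1 stood among them. The knockout mean was 0.545 times the wild type mean, a log2 difference of -0.88 (SE 0.432, 95% interval -1.85 to 0.10), the widest interval of the 40 members. That difference was -1.39 with wild type replicate 1 left out and -0.49 with wild type replicate 2 left out. Wnt4 stood in the same order over the 6 arrays as the mean of 9 measured hormone-sensing luminal markers, a relation looked for after the values were seen. That marker mean was 6.27, 7.54 and 7.30 in wild type and 6.30, 6.85 and 6.17 in knockout cells. Of the 9 markers 8 were lower in the knockout, 2 of them at an unadjusted limma p under 0.05 and 4 with the replicate block. Over all genes 3.32% and 5.01% had such a p in either direction. The mean of 14 general luminal markers stood in the same order as Wnt4 too. It was 8.04, 9.01 and 8.82 in wild type and 8.34, 8.48 and 8.03 in knockout cells, so the shared order is not particular to hormone-sensing markers. The part of luminal cells in the Wnt4 difference was not tested, and in sorted bulk samples fewer cells of a type and less RNA per cell cannot be told apart.

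The other ligands differed less. Wnt5b, a ligand mostly linked to signalling without beta-catenin, read 5.94, 5.91 and 5.57 in wild type and 5.55, 5.59 and 5.42 in knockout cells. Its groups overlapped only through wild type replicate 3, and the difference was -0.29 (SE 0.155, 95% interval -0.64 to 0.06). Wnt5a, of the same kind, differed by -0.23, a value of -0.52 with wild type replicate 1 left out and of -0.08 or -0.09 with wild type replicate 2 or 3 or knockout replicate 3 left out. Wnt10a, which acts through beta-catenin, differed by -0.24, a value of 0.026 with wild type replicate 2 left out. Wnt6, Wnt7b and Wnt11 differed by 0.01, -0.07 and 0.03, each by less than its SE. Rspo1, a secreted R-spondin that strengthens Wnt signals by way of Lgr receptors, read 6.57, 6.73 and 6.65 in wild type and 6.69, 6.63 and 7.25 in knockout cells. Knockout replicate 3 alone stood above the wild type arrays by a clear margin, and the difference of 0.21 (SE 0.198) was 0.016 without it.

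Of the 12 receptors and receptor partners, 7 were higher and 5 lower, with a median difference of 0.055. Fzd8, a Frizzled receptor, read 6.81, 7.19 and 6.64 in wild type and 8.04, 7.90 and 7.03 in knockout cells. Knockout replicates 1 and 2 exceeded the wild type range, and knockout replicate 3 lay below wild type replicate 2. The difference was 0.78 (SE 0.280, 95% interval 0.14 to 1.41), or 1.71 times the wild type mean, with an unadjusted limma p of 0.0217. That Fzd8 difference ran from 0.58 without knockout replicate 1 to 1.09 without knockout replicate 3. Its unadjusted limma p was 0.0901, 0.0748 and 0.00125 without knockout replicates 1, 2 and 3 in turn. Without wild type replicates 1, 2 and 3 in turn it was 0.0513, 0.0165 and 0.077. Same-numbered arrays differed by 1.23, 0.71 and 0.39. Fzd7, a Frizzled receptor associated with mammary cells of regenerative capacity, read 7.78, 7.36 and 6.84 in wild type and 7.81, 8.54 and 7.53 in knockout cells. Its groups overlapped, and the difference of 0.63 (SE 0.309, 95% interval -0.07 to 1.33) came to 0.34 with knockout replicate 2 left out and 0.38 with wild type replicate 3 left out. The remaining Frizzled genes did not share one direction: Fzd2 differed by 0.30, Fzd6 by -0.24 and Fzd1 by less than 0.01. The Fzd2 value was 0.62 with knockout replicate 3 left out, and 0.18, 0.11 and 0.10 with knockout replicate 1, knockout replicate 2 and wild type replicate 3 left out in turn. That of Fzd6 was -0.39 with knockout replicate 1 left out and -0.11 with knockout replicate 2 left out.

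**Figure D2:**
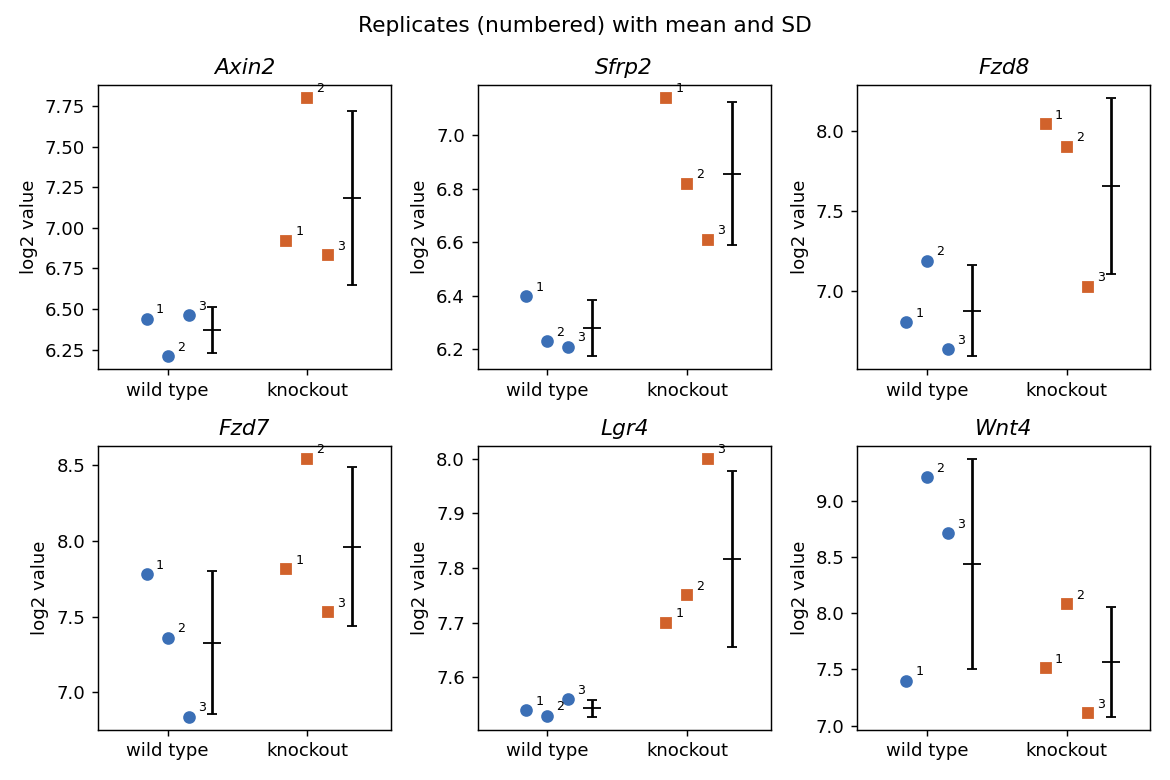
Log2 values of 6 genes (vertical axes, each with its own range) on the 3 wild type arrays (blue circles) and 3 knockout arrays (orange squares), with replicate numbers beside the points and the mean and SD as black bars. Axin2, Sfrp2 and Lgr4 have no overlap between groups, and wild type replicate 1 of Wnt4 lies among the knockout arrays.

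The Lgr receptors bind R-spondins and thereby protect Frizzled receptors from removal. Lgr4 was the steadiest of the non-overlapping genes in wild type cells, at 7.54, 7.53 and 7.56, against 7.70, 7.75 and 8.00 in knockout cells. Every knockout array was thus above every wild type array, but the difference was small, 0.28 (SE 0.162, 95% interval -0.09 to 0.64, unadjusted p of 0.124 from limma's fit over all genes), and 0.18 without knockout replicate 3. Lgr5, a receptor and Wnt target used as a stem cell marker in other epithelia, read 9.02, 8.53 and 8.78 in wild type and 8.95, 9.17 and 8.39 in knockout cells. The knockout arrays of Lgr5 spanned the wild type range on both sides, and the difference was 0.06 (95% interval -0.46 to 0.59). Lgr6, the third of these receptors, differed by -0.03 (95% interval -0.56 to 0.49). The co-receptors Lrp5 and Lrp6 differed by 0.04 and 0.08. Ror2, a receptor of Wnt5a, and Vangl2, a membrane protein of planar cell polarity, differed by -0.05 and -0.14.

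The secreted inhibitors, which bind Wnt proteins or their receptors outside the cell, had 4 members higher and 3 lower, with a median of 0.022. Sfrp2, a decoy with a Frizzled-like domain, read 6.40, 6.23 and 6.21 in wild type and 7.14, 6.82 and 6.61 in knockout cells. The lowest knockout array exceeded the highest wild type array. The difference was 0.58 (SE 0.180, 95% interval 0.17 to 0.99), or 1.49 times, with an unadjusted limma p of 0.0107, the smallest of any member. A second probe set of Sfrp2 gave only 0.0896, so the probes of this gene disagree. The wild type means of the 2 probe sets were 6.278 for the one kept and 6.284 for the other, and the knockout means 6.857 and 6.374. The rule of the highest mean over all arrays thus kept the first through its knockout values, so its difference and p are a description of that probe set and support nothing about the gene. In a list of 14 fibroblast markers 12 were higher and 2 lower, with 4 higher at an unadjusted limma p under 0.05 (1.61% of all genes were). The list mean was 6.46, 6.46 and 6.17 in wild type and 6.67, 6.73 and 6.70 in knockout cells. Among defining fibroblast genes, Pdgfra differed by 0.85 and Dcn by 0.54, while Col1a1 differed by 0.13. The adipocyte gene Fabp4 differed by 1.31, though Adipoq differed by -0.05. Sfrp2 is known from stromal fibroblasts, and the part of such cells in its difference was not tested.

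Dkk2, of the Dickkopf family that blocks Lrp co-receptors, read 5.55, 4.97 and 5.69 in wild type and 5.90, 5.65 and 5.88 in knockout cells. Only knockout replicate 2 lay below the highest wild type array, and the difference of 0.41 (SE 0.201, 95% interval -0.05 to 0.86) was 0.19 without wild type replicate 2. Sfrp1, the relative of Sfrp2, differed the other way by -0.25 (95% interval -0.76 to 0.25), a value of -0.026 without wild type replicate 2. Wif1, which traps Wnt proteins, differed by 0.11, and Dkk3 by -0.05. Sfrp4, another relative of Sfrp2, differed by -0.09. Notum, an enzyme that strips the lipid from Wnt proteins, differed by 0.02.

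Feedback inhibitors, which Wnt signalling itself switches on in many tissues, were all nominally higher: 6 of 6, with a median of 0.083 and a range of 0.01 to 0.82. Axin2, a scaffold of the beta-catenin destruction complex and the most widely used readout of canonical signalling, read 6.44, 6.21 and 6.46 in wild type and 6.92, 7.80 and 6.83 in knockout cells. Every knockout array was above every wild type array, and knockout replicate 2 was highest by far. The difference was 0.82 (SE 0.257, 95% interval 0.23 to 1.40), or 1.76 times, with an unadjusted limma p of 0.0113. Without knockout replicate 2 it was 0.51. A second probe set of Axin2, with lower means in both genotypes (5.16 and 5.26), gave a difference of 0.105, so here too the probes of one gene disagree. Knockout replicate 2 also had the highest mean of 18 dissociation stress genes, 10.59, and the other knockout arrays had 10.01 and 9.52. The wild type arrays had 9.74, 10.07 and 9.31, an order opposite to that of Axin2 on them. Wild type replicate 2 was thus the highest wild type array in the stress mean but the lowest of all arrays in Axin2. Of the 18 stress genes 17 were higher in the knockout. In limma 0 of the 18 had an unadjusted p under 0.05 and, with the replicate block, 7 did, all higher, with a lowest adjusted p of 0.532. Over all genes the shares in either direction were 3.32% and 5.01%. Same-numbered list means differed by 0.28, 0.52 and 0.21, and the list's part in the Axin2 value was not tested.

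Apcdd1, a membrane inhibitor of Wnt binding, read 6.71, 6.55 and 5.87 in wild type and 6.82, 7.37 and 6.26 in knockout cells. Its groups overlapped through knockout replicate 3, and the difference of 0.44 (SE 0.309, 95% interval -0.26 to 1.14) shrank to 0.17 with knockout replicate 2 left out and 0.19 with wild type replicate 3 left out, and reached 0.72 with knockout replicate 3 left out. The remaining 4 feedback genes stayed near 0. Rnf43 and Znrf3, which remove Frizzled receptors from the surface, differed by 0.12 (95% interval -0.35 to 0.59) and 0.01 (-0.41 to 0.42). Nkd1 and Nkd2, which bind Dishevelled, differed by 0.04 (-0.63 to 0.71) and 0.05 (-0.33 to 0.42). The sign of Znrf3, Nkd1 and Nkd2 turned when 1 array was left out. Of 11 measured common targets of canonical signalling (the feedback inhibitors with Notum, Lef1, Sp5, Lgr5 and Tnfrsf19), 9 were nominally higher and 2 lower, with a median of 0.041, and Axin2 alone had an unadjusted limma p under 0.05. Over all genes 48.3% were nominally higher, and 3.32% had such a p in either direction.

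**Figure D3:**
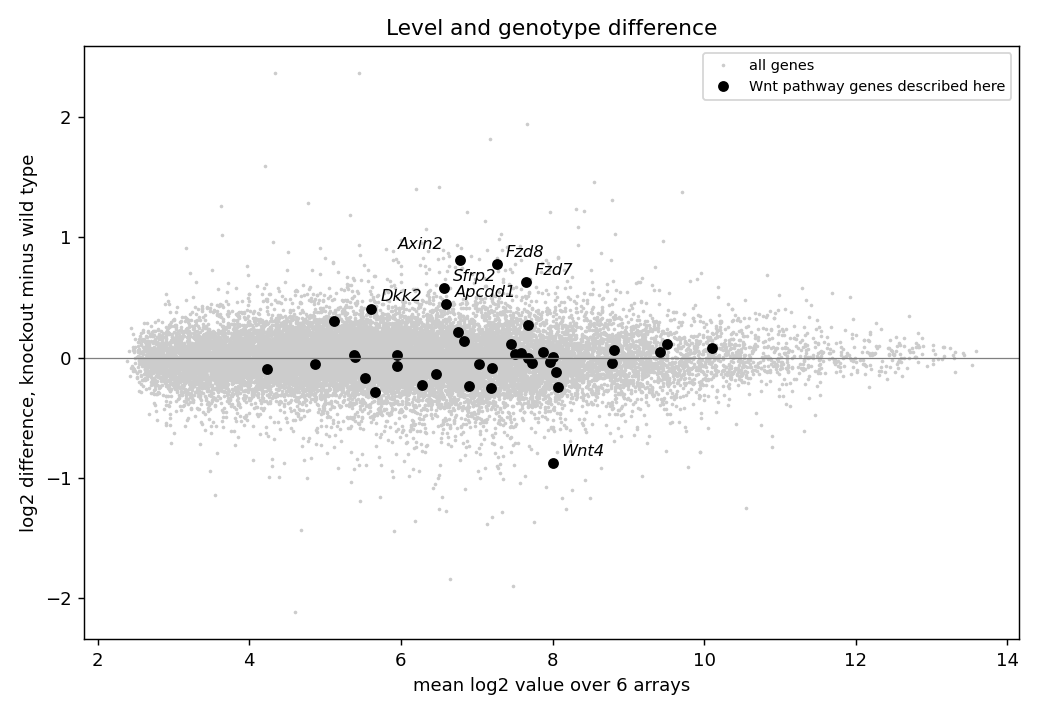
Mean log2 value over the 6 arrays (horizontal axis) against the log2 difference, knockout minus wild type (vertical axis), with grey points for all 22180 genes and black points for the 40 Wnt genes. Members with differences beyond 0.35 are named, and Wnt4 at -0.88 and Axin2 at 0.82 are the extremes among the members.

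Transducers and transcription factors differed little. Ctnnb1, which encodes beta-catenin, read 7.51, 8.11 and 7.62 in wild type and 7.70, 7.69 and 7.71 in knockout cells. The knockout arrays lay inside the wild type range, with a difference of -0.05 (SE 0.194, 95% interval -0.49 to 0.39). Beta-catenin is controlled mainly through its protein, which arrays do not measure. Apc, the destruction complex scaffold, read 7.15, 7.38 and 7.19 in wild type and 7.32, 6.93 and 7.21 in knockout cells, with a difference of -0.09 (95% interval -0.48 to 0.31) and overlapping groups. Lef1, a DNA-binding partner of beta-catenin, read 5.72, 5.69 and 5.43 in wild type and 5.56, 5.42 and 5.34 in knockout cells. Its groups overlapped through wild type replicate 3, and the difference was -0.17 (SE 0.147, 95% interval -0.51 to 0.16). Tcf7l2 read 6.62, 7.15 and 6.53 in wild type and 7.05, 7.14 and 6.53 in knockout cells, with nearly the same range in both and a difference of 0.14 (95% interval -0.39 to 0.66). Tcf7l1, mostly a repressor of Wnt targets, differed by -0.12 (95% interval -0.58 to 0.35). Sp5, a target that encodes a zinc finger repressor, differed by 0.02, with wild type replicate 2 lowest at 4.80 and the other arrays between 5.13 and 5.68. Tnfrsf19, a receptor known as a Wnt target, read 4.87, 4.83 and 4.99 in wild type and 4.82, 4.84 and 4.89 in knockout cells, the narrowest range of the 40 members, with a difference of -0.05 (95% interval -0.33 to 0.23).

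The DNA just before the start of 3 of these genes was read for TCF/LEF motifs, since these factors carry the canonical signal. Axin2 and Sfrp2 are printed because they had the smallest unadjusted p among members, and Sp5 because its window held the most TCF/LEF matches. The core searched was CTTTG followed by A or T and again by A or T, on both strands, in windows of 250 bases before to 50 after each RefSeq start (GRCm38.p6). The 250 bases before the start are given 5′ to 3′ along the gene, with matches in capitals, for Axin2 at chr11:108920099-108920348, Sfrp2 at chr3:83766071-83766320 and Sp5 at chr2:70474673-70474922, all on the plus strand.
Axin2: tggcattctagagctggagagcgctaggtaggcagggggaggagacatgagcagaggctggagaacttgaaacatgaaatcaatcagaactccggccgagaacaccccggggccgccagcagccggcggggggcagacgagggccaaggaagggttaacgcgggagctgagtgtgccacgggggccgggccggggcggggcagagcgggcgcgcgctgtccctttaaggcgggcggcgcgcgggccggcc
Sfrp2: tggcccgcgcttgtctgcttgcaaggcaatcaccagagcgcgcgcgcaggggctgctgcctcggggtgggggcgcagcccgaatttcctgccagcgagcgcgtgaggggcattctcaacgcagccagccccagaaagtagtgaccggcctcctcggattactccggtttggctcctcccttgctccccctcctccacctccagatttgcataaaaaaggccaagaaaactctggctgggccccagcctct
Sp5: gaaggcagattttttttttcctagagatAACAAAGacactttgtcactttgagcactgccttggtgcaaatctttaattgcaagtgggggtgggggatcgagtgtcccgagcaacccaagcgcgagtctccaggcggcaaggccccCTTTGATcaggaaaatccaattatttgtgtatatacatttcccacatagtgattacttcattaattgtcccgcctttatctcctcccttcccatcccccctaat

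Counted from the start, Sp5 held a match on the opposite strand with its first base at -222 and one on the same strand at -104, while the windows of Axin2 and Sfrp2 held none. Windows were found for 25 of the 41 listed genes, Tcf7 among them. Of these 25, 7 (28.0%) had a match in at least 1 window, against 18.9% of all 27025 genes with a window. The 7 were Wnt5b, Wnt11, Fzd7, Lef1, Tcf7l2, Sp5 and Tnfrsf19. By window the shares were 19.4% of 36 and 16.9% of 32851. Among the 7, Fzd7 had the largest positive difference and Wnt5b the lowest, so the differences of genes with a match had both signs. A match is a run of letters and not a measured binding site, and no binding was measured here. Sites outside these windows or with another sequence were not searched, so a window without a match does not show that a gene lacks them.

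A wider list of Wnt pathway genes had 0 genes at an unadjusted p under 0.05 in limma, against 3.32% of all genes. With the replicate block there were 4 of the 86 measured, a share near the 5.01% of all genes, with a lowest adjusted p of 0.882. Of these Dact1 and Id2 were higher and Ccnd1 and Porcn lower. Of 91 listed, 86 were measured, 55 nominally higher (64.0%, against 48.3% of all genes) and 31 lower, with a median difference of 0.044. The groups did not overlap for 12 of them, 6 in each direction, 14.0% together against 7.68% of all genes. Both genes of ligand export were lower: Porcn, the enzyme that attaches the lipid to Wnt proteins, by -0.46 (SE 0.215) and Wls, their carrier, by -0.08 (SE 0.135). Their groups did not overlap, although the Wls difference was smaller than its SE. Among the R-spondins Rspo2 differed by 0.30 and Rspo4 by -0.22, opposite ways and both without overlap. Fzd3, a receptor, differed by 0.36 and Ror1, a receptor of Wnt5a, by 0.30. Kremen1, a partner of Dickkopf proteins, differed by 0.34 and Igfbp4, which binds insulin-like growth factors and can also block Wnt receptors, by 0.29. In the cytoplasm Amer1, a scaffold of the destruction complex, differed by 0.35 and the kinase Csnk1e by -0.32. The nuclear cofactor Pygo1 differed by 0.26 and the chromatin remodeller Chd8 by 0.31. Among targets shared with other pathways, Ccnd1 (cyclin D1) differed by -0.58 and Myc by 0.35. In planar polarity Daam1 differed by -0.37 and Vangl1 by 0.35. The 12 ligands outside the main list had a median of 0.031 and none without overlap, with Wnt9a at 0.38 and Wnt8a at 0.29.

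**Figure D4:**
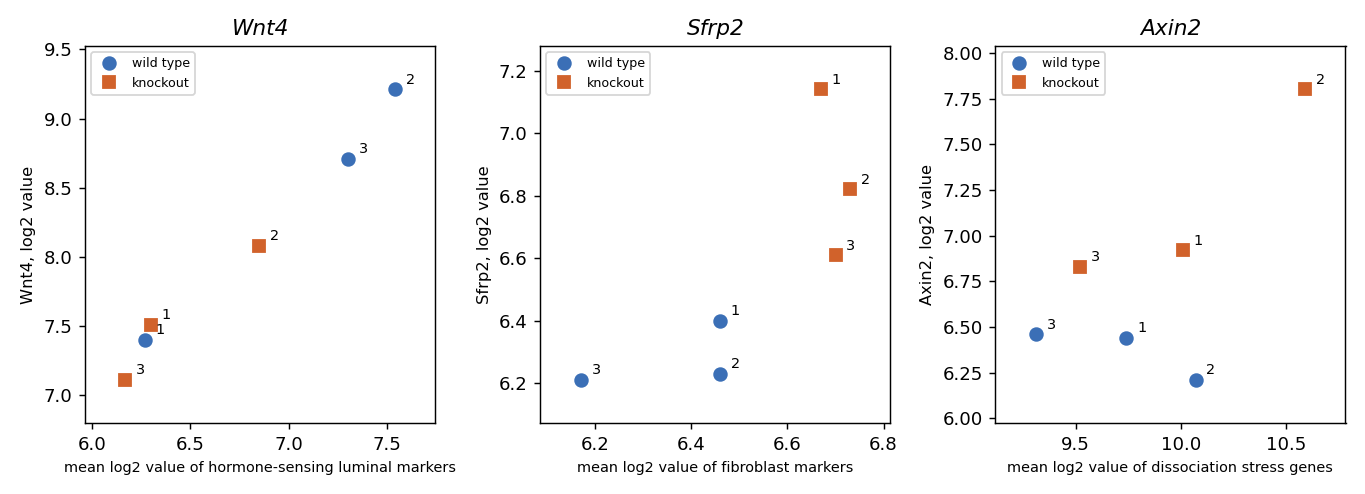
Log2 value of Wnt4, Sfrp2 and Axin2 (vertical axes) against the mean log2 value of hormone-sensing luminal markers, fibroblast markers and dissociation stress genes on the same array (horizontal axes), with replicate numbers beside blue circles for wild type and orange squares for knockout. Wnt4 runs in the same order as the hormone-sensing luminal mean over all 6 arrays, as it does with the general luminal mean, which is not drawn. The fibroblast mean separates the genotypes but not in the order of Sfrp2 among knockout arrays. For Axin2 knockout replicate 2 is highest on both axes, while the wild type arrays run in opposite orders on the 2 axes.

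The wild type and knockout arrays share replicate numbers, and for 10 of 40 members all 3 same-numbered differences had one sign (25.0%, against 23.8% of all genes), 8 of them toward higher values in the knockout. Axin2 differed by 0.49, 1.58 and 0.38 between same-numbered arrays, Sfrp2 by 0.75, 0.59 and 0.40, and Wnt4 by 0.11, -1.13 and -1.60. The member mean over all 40 genes differed by 0.12, 0.03 and 0.01. For Axin2 and the kept probe set of Sfrp2 any pairing gives positive differences, since their groups do not overlap, so these signs add nothing to that. The same-numbered Fzd8 differences were positive too, while those of Wnt4 had both signs. The hormone-sensing luminal mean differed by 0.03, -0.69 and -1.13 between the same arrays, the general luminal mean by 0.30, -0.53 and -0.79 and the luminal progenitor mean by 0.48, -0.30 and 1.01.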

How the data were processed

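Each of 6 samples was hybridized to 1 whole-transcript array after labelling with a Pico kit (labels' protocols). Per probe set, the authors deposited log2 signals made with RMA in Transcriptome Analysis Console 4.0 per the submitters' processing notes. RMA corrects background, equalizes the arrays and summarizes probes. Arrays carry no read depth, so precision is limited by their number. Rows with exactly 1 gene symbol (23521 of 41345) were kept, and for the 1082 genes with several rows the one of highest mean, which left 22180 genes. Array medians over genes lay between 5.73 and 5.81, and no array repeated another.

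The genotype difference was fitted with limma 3.58.1 (lmFit and trended eBayes, R 4.3.3), with two-sided p-values adjusted by Benjamini-Hochberg over all genes at a threshold of 0.05. The fit was tested on simulated data. The member list, the wider Wnt list and the marker lists were chosen with earlier results of these data known, so counts over them are descriptions. Genes were named by rule: every member, in full those at an unadjusted p under 0.05, those whose groups do not overlap and the 2 of smallest p per class, and the 2 of smallest p per class of the wider list. The array values of Lgr5, Sp5 and Dkkl1 were added after they were seen.

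Across genes, same-numbered arrays of the genotypes had correlated deviations from their group means, at 0.121, 0.25 and 0.127, so the replicate block was run as well. What a number shares is in no label, and wild type replicate 1 correlated at 0.13 with knockout replicate 3. Alternatives changed the prior, array weights, normalization, dim-gene filter, row choice, pairing and threshold, and left out each array. Promoter sequences are from RefSeq (GRCm38.p6). Figures used matplotlib 3.10.9.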

Additional observations from a re-analysis of the deposited data

How the results depend on the processing

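No member, no gene of the wider Wnt list and no gene of the table passed under any alternative, including a threshold of 0.1, and the lowest adjusted p of a member was 0.244. The count of members at an unadjusted p under 0.05, 3 in the report, was 6 with array weights, 7 with the replicate block (the pairing by replicate number) and 1 with the lowest row per gene, and lay between 1 and 6 when 1 array was left out. Outside the main fit and the block, the share of all genes was not counted, so those counts cannot be set against all genes. The member median stayed within -0.031 and 0.075. Of 552 member values under an alternative, 501 kept their sign. The 20 members that changed sign differed by at most 0.235. With array weights the sign turned for Ctnnb1 (0.027), Dkk3 (0.16), Fzd1 (0.06), Nkd1 (-0.28) and Sp5 (-0.07). With quantile normalization it turned for Fzd1 (0.035), Lgr6 (0.0022) and Wnt6 (-0.0038), with median centring for Wnt6 (-0.00045), and with the lowest row for Lgr5 (-0.0073). With 1 array left out the differences ranged as follows: Apc from -0.17 to 0.025, Ctnnb1 from -0.17 to 0.14, Dkk3 from -0.24 to 0.09, Fzd1 from -0.07 to 0.08, Lgr5 from -0.10 to 0.29, Lgr6 from -0.24 to 0.11, Lrp5 from -0.08 to 0.18, Lrp6 from -0.08 to 0.27, Nkd1 from -0.27 to 0.30, Nkd2 from -0.046 to 0.10, Notum from -0.11 to 0.09, Sfrp4 from -0.33 to 0.05, Sp5 from -0.26 to 0.17, Vangl2 from -0.24 to 0.007, Wif1 from -0.005 to 0.30, Wnt10a from -0.43 to 0.026, Wnt11 from -0.09 to 0.10, Wnt6 from -0.23 to 0.14, Wnt7b from -0.17 to 0.023 and Znrf3 from -0.06 to 0.13. Other members kept their sign but moved by over 1.5 times: Apcdd1 from 0.17 to 0.72, Axin2 from 0.51 to 0.99, Dkk2 from 0.19 to 0.55, Fzd2 from 0.10 to 0.62, Fzd6 from -0.39 to -0.11, Fzd7 from 0.34 to 0.85, Lef1 from -0.26 to -0.12, Lgr4 from 0.18 to 0.34, Rnf43 from 0.0045 to 0.31, Ror2 from -0.11 to -0.01, Rspo1 from 0.016 to 0.32, Sfrp1 from -0.41 to -0.026, Tcf7l1 from -0.27 to -0.035, Tcf7l2 from 0.016 to 0.33, Tnfrsf19 from -0.08 to -0.0031, Wnt4 from -1.39 to -0.49 and Wnt5a from -0.52 to -0.08. The factor of 1.5 is taken from the main difference. By that measure Fzd8, from 0.58 to 1.09, and Wnt5b, from -0.40 to -0.22, moved less. These ranges cover arrays left out and not the choice of row. With the lowest row per gene the difference was 0.105 for Axin2 and 0.0896 for Sfrp2, against 0.82 and 0.58 in the main fit. The cause of these changes was not tested.

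With 3 arrays per genotype the median SE of a member difference was 0.201. Probe sets of Axin2 and of Sfrp2 disagreed. The one kept for Axin2 had the higher mean in both genotypes, and the one kept for Sfrp2 in the knockout alone.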
